A study of Mus musculus with 14 samples.

Results

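The hexosamine pathway turns fructose 6-phosphate and glutamine into UDP-GlcNAc, the sugar donor for protein glycosylation, and the O-GlcNAc enzymes add that sugar to and remove it from proteins inside the cell. Glutamine fructose-6-phosphate transaminase, made from Gfpt1 or its paralog Gfpt2, catalyses the committed first step. Gnpnat1 then acetylates the amino sugar, Pgm3 moves its phosphate, and Uap1 joins it to UTP. Ogt is the single nuclear and cytosolic O-GlcNAc transferase, and Mgea5, now named Oga, is the hydrolase that removes the mark. In the heart this pathway is known as a sensor of nutrient supply and of stress, and spliced Xbp1 is known to raise transcription of several of its genes.

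The 7 genes are the rows named GFPT1, GFPT2, GNPNAT1, PGM3, UAP1, OGT and MGEA5 among 18138 gene rows. They were chosen by name, with earlier results of these data known. The exception is GFPT2, which was chosen by its measured signal, for a pattern that ran in opposite directions in the 2 substrains. Its values are therefore a description and carry no p-value. The substrain differences of all 7 genes are likewise given without a p-value. All 7 have a row, and 3 of them, Gfpt2, Uap1 and Ogt, were above background on all 14 arrays. The other 4, Gfpt1, Gnpnat1, Pgm3 and Mgea5, were above background on none. The rows of these 4 appeared to rest on 1 probe each, from the steps of their detection p-values. Gfpt2, Uap1 and Ogt had a detection p-value of 0 on every array, which cannot show how many probes a row rests on.

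The samples were whole left ventricles of male mice of the C57Bl/6J and C57Bl/6N substrains, with no transgene or engineered allele named in the labels. In each substrain 4 arrays came from animals that received angiotensin II, the vasoconstrictor peptide of the renin-angiotensin system, for 48 h from an osmotic pump under the skin. The other 3 came from sham-operated controls. Its dose is 500 ng/kg, stated per minute in the series title but per hour in the design text, and which of these holds is not settled here. Age was not among the labels. Nothing in the labels ties each sample to its own mouse, so the spread behind a p-value here is that between samples and may be technical.

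Of the 18138 rows, between 46.4% and 49.3% were above background on each array and 9408 were tested, and arrays of the same group correlated at 0.987 or higher. Cardiomyocyte markers were bright: 11 of the 12 listed had a row, and all 11 were above background on all 14 arrays. Their summed normalised signal was 263077 to 283553 in C57Bl/6N sham and 235849 to 259410 after treatment, without overlap, with 0 of 11 called and a median log2 difference of -0.22. In C57Bl/6J it was 247953 to 264091 in sham and 251197 to 274134 after treatment, with 0 called and a median of 0.03. Macrophage and monocyte markers moved with treatment in C57Bl/6N. Of 13 tested, 12 were called higher there, as were 9.45% of all tested rows, and 0 in C57Bl/6J, where 0.999% of rows were. The difference between the substrains' responses was called for 0 of the 13, so a rise particular to C57Bl/6N was not shown. The summed signal of these markers was 13603 to 17543 in C57Bl/6N sham against 20629 to 43594 after angiotensin II. In C57Bl/6J it was 15651 to 19352 in sham and 17950 to 19082 after treatment. The treated C57Bl/6N array 4 stood apart with 20629, against 29812 to 43594 on the other 3. Fibroblast markers, of which Ddr2 was above background on 0 arrays, had 5 of 11 called higher and 2 lower in C57Bl/6N. There 9.45% of all tested rows were called higher and 7.92% lower. The fibroblast summed signal was 15925 to 18987 in sham and 18799 to 21727 after treatment. In C57Bl/6J 1 of 11 was called higher, and the sum was 17060 to 17648 in sham and 17946 to 20602 after treatment, without overlap. Endothelial markers, of which Kdr was above background on 0 arrays, had 1 of 9 called lower in C57Bl/6N, where 7.92% of all rows were. These markers summed to 13313 to 13727 in C57Bl/6N sham and 11408 to 13433 after treatment. In C57Bl/6J they summed to 12708 to 13898 and then 11895 to 12994, with 0 called. Atrial markers, of which Bmp10 was above background on 0 arrays, summed to 10726 to 32585 in C57Bl/6N sham and 46600 to 49448 after treatment. The members did not move alike there: 1 of 5 was called higher, and their log2 differences ran from -0.58 to 1.47 with a median of 0.07. In C57Bl/6J they summed to 17034 to 24612 and then 38288 to 43205, with 1 of 5 called higher and a median of 0.64. In such bulk samples fewer cells of a type and less RNA per cell cannot be told apart.

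Gfpt2 and Uap1 are the members whose C57Bl/6N sham arrays lay wholly above the treated ones, so the 250 bases before their gene starts are shown. They come from RefSeq on GRCm38.p6, are written 5′ to 3′ on the gene's own strand, and have a motif match in capitals.
Gfpt2, chr11:49793905-49794154, plus strand: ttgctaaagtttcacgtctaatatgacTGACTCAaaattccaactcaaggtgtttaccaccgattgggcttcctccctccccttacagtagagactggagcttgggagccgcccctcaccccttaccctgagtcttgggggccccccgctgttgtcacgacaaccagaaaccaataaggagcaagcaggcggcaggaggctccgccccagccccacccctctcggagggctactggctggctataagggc
Uap1, chr1:170174965-170175214, minus strand: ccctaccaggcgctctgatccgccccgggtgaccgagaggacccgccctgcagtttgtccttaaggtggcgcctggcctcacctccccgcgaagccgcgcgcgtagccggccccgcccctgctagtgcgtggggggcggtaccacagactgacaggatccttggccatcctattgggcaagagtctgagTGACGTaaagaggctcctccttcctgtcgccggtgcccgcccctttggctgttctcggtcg
In Gfpt2 the capitals mark TGACTCA, the AP-1 element, whose first base is base 28 of the window. In Uap1 they mark TGACGT, with its first base at base 190. A second TGACGT of Uap1 begins at base 252 of the 300-base window that was searched, just past the gene start and outside the stretch shown. Windows of 300 bases were searched on both strands for the Xbp1 element TGACGTGG, the cyclic AMP response element TGACGTCA and the Atf4 element TGATGNAA. No window of Gfpt1, Gfpt2, Pgm3, Uap1, Ogt or Oga held any of these 3. TGACGT, which lies inside the first 2 of them, and TGACTCA were added after the promoters had been read. Over 32851 windows, the share holding each motif was 0.676% for TGACGTGG, 1.79% for TGACGTCA, 3.97% for TGATGNAA, 7.51% for TGACGT and 5.2% for TGACTCA. A match is a run of letters, not a site in use.

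Gfpt2, the first-step enzyme, lies at chr11:49794155-49838620 in GRCm38.p6. On the log2 scale of normalised signal its 3 C57Bl/6J sham arrays read 8.05, 8.31 and 8.59, and the 4 treated arrays read 9.18, 8.45, 8.73 and 8.90. The 3 C57Bl/6N sham arrays read 9.06, 9.43 and 9.48, and the 4 treated arrays read 8.28, 8.31, 8.58 and 8.41. Every treated C57Bl/6N array was thus below every C57Bl/6N sham array, while in C57Bl/6J treated array 2 lay below sham array 3 and the groups overlapped. The group means were 8.32 ± 0.27 (SD, n = 3) in C57Bl/6J sham and 8.81 ± 0.31 (SD, n = 4) after treatment. They were 9.32 ± 0.23 (SD, n = 3) in C57Bl/6N sham and 8.39 ± 0.14 (SD, n = 4) after treatment.

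**Figure D1:**
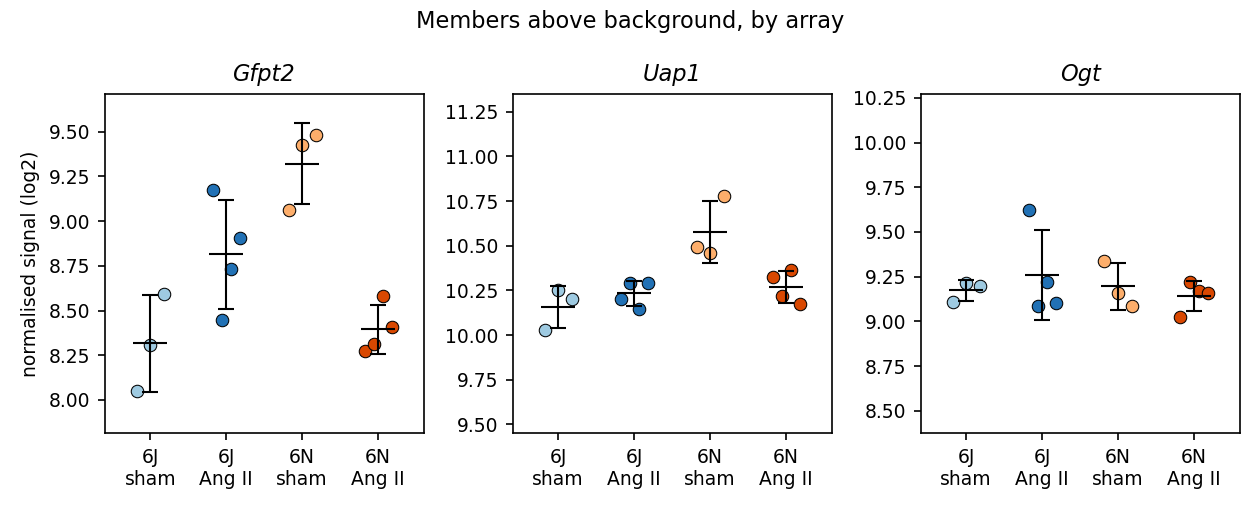
Normalised log2 signal of Gfpt2, Uap1 and Ogt on each of 14 arrays, by group, with horizontal bars for the mean and whiskers for the SD; the 3 panels span the same number of log2 units around different levels. C57Bl/6N sham arrays are the highest for Gfpt2 and Uap1 on average, at 9.32 and 10.58, and the 4 groups of Ogt overlap.

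In C57Bl/6N the treated mean of Gfpt2 was 1.9-fold below sham, a log2 difference of -0.93 (SE 0.17). In C57Bl/6J it was 1.41-fold above sham, a log2 difference of 0.50 (SE 0.17). The C57Bl/6N response minus the C57Bl/6J response was -1.43 (SE 0.24). Among sham arrays the C57Bl/6N mean was 2.01-fold above the C57Bl/6J mean (log2 difference 1.01, SE 0.18) and the arrays did not overlap. Among treated arrays the C57Bl/6N mean was lower by a log2 difference of -0.42 (SE 0.16), and the arrays overlapped. These values contributed to the choice of Gfpt2 and nothing is read from them beyond the description.

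Ordered by mean, Gfpt2 was highest in C57Bl/6N sham, then in treated C57Bl/6J, then in treated C57Bl/6N, and lowest in C57Bl/6J sham. Each neighbouring pair in this order overlapped between arrays. The order of the substrains thus differed by treatment: sham C57Bl/6N stood above sham C57Bl/6J, and treated C57Bl/6N stood below treated C57Bl/6J on average. The authors' value table, a linear quantile-normalised intensity, had the same order, with means of 695 ± 96.9 (SD, n = 3), 508 ± 96.6 (SD, n = 4), 388 ± 32.6 (SD, n = 4) and 373 ± 61.1 (SD, n = 3).

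Signal was well clear of the detection limit for this gene: the deposited intensity of Gfpt2 was 324 to 683, or 3.46 to 7.46 times the lowest detected signal of the same array. The treated C57Bl/6N array with the lowest summed macrophage signal, array 4, read 8.41, within the 8.28 to 8.58 of the other 3, and without it the C57Bl/6N difference was -0.93. The part of macrophage, cardiomyocyte, fibroblast, atrial and endothelial markers in the Gfpt2 and Uap1 values was not tested. Treated C57Bl/6J array 1 was the highest of its group at 9.18, and without it the C57Bl/6J difference was 0.38.

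Gfpt1, the paralog for the same step, lies at chr6:87042846-87092207. Its detection p-value was 0.771 to 0.955 over the 14 arrays, and its signal was 0.513 to 0.6 of the lowest detected signal. No level, fold or comparison with Gfpt2 is therefore given. Such a reading bounds what the probe showed and does not say that the transcript was absent.

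The next steps of the pathway were below background too. Gnpnat1, the acetyltransferase at chr14:45376421-45388987, had detection p-values of 0.768 to 0.997 and signals 0.485 to 0.596 of the lowest detected signal. Pgm3, the mutase at chr9:86552476-86571878, was the nearest to detection of the 4, with detection p-values of 0.0627 to 0.335 and signals 0.711 to 0.963 of the lowest detected signal. Its highest relative signal was on treated C57Bl/6J array 1.

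**Figure D2:**
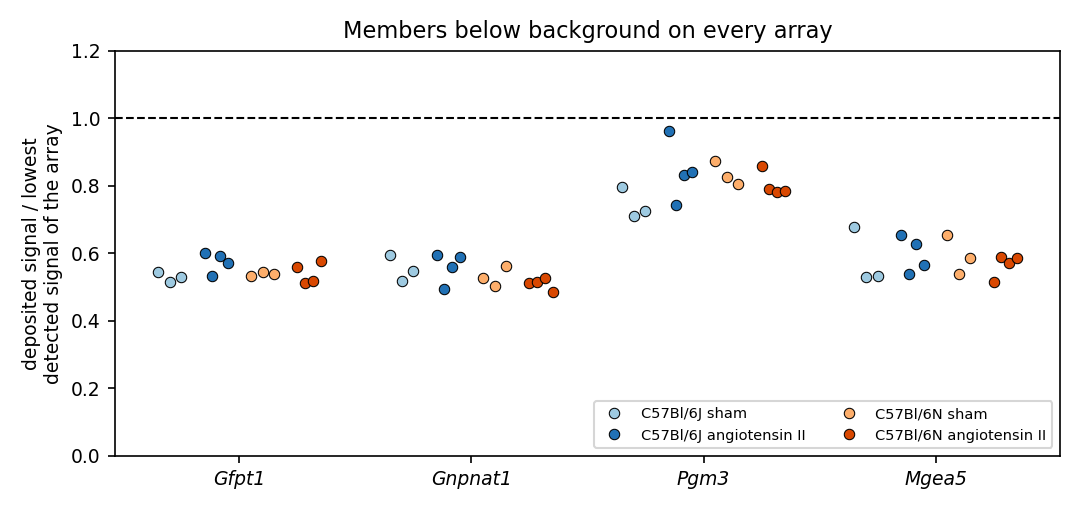
Deposited signal of Gfpt1, Gnpnat1, Pgm3 and Mgea5 on each of 14 arrays, divided by the lowest detected signal of that array, coloured by group; the dashed line at 1 marks detection. All points lie under the line, and Pgm3 comes nearest, up to 0.963.

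Uap1, the pyrophosphorylase that completes UDP-GlcNAc, lies at chr1:170141223-170174964. In C57Bl/6N the 3 sham arrays read 10.49, 10.46 and 10.78 and the 4 treated arrays read 10.33, 10.22, 10.37 and 10.17. All 4 treated arrays were below all 3 sham arrays. The mean went from 10.58 ± 0.17 (SD, n = 3) to 10.27 ± 0.09 (SD, n = 4), so Uap1 fell 1.24-fold (log2 difference -0.31, SE 0.10, 95% interval -0.52 to -0.09, limma adjusted p = 0.0494). That adjusted p sits at the threshold of 0.05, and it ran from 0.0294 to 0.19 over 25 alternatives, 17 of which lost the call. Of these 17, 13 left out 1 array, including treated C57Bl/6N array 4 (adjusted p = 0.088).

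In C57Bl/6J, Uap1 read 10.03, 10.25 and 10.20 on the sham arrays and 10.20, 10.29, 10.15 and 10.29 on the treated arrays. The groups overlapped, at means of 10.16 ± 0.12 (SD, n = 3) and 10.23 ± 0.07 (SD, n = 4). The log2 difference was 0.08 (SE 0.10, 95% interval -0.14 to 0.29, limma adjusted p = 0.76). The difference between the substrains' responses was -0.38 (SE 0.14, limma adjusted p = 0.212), so a response particular to C57Bl/6N was not shown.

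Among sham arrays, the Uap1 mean was 1.34-fold higher in C57Bl/6N than in C57Bl/6J (log2 difference 0.42), with no overlap. Among treated arrays the log2 difference was 0.04 and the groups overlapped. Across the 14 arrays Uap1 and Gfpt2 correlated at r = 0.72, as a description of arrays that share groups and normalisation. Ogt correlated with Gfpt2 at 0.33 and with Uap1 at -0.15.

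Ogt, the O-GlcNAc transferase, lies at chrX:101640011-101684351. Its C57Bl/6J sham arrays read 9.11, 9.22 and 9.20, and its treated arrays read 9.63, 9.09, 9.22 and 9.10. Its C57Bl/6N sham arrays read 9.34, 9.16 and 9.09, and its treated arrays read 9.02, 9.22, 9.17 and 9.16. All 4 groups overlapped, and treated C57Bl/6J array 1 was the highest of the 14.

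The log2 difference of Ogt with angiotensin II was 0.08 in C57Bl/6J (SE 0.12, 95% interval -0.18 to 0.35, limma adjusted p = 0.785). In C57Bl/6N it was -0.05 (95% interval -0.31 to 0.21, limma adjusted p = 0.813). The difference of the responses was -0.14 (limma adjusted p = 0.702). Substrain differences were 0.02 in sham and -0.12 under angiotensin II. Without treated C57Bl/6J array 1 the C57Bl/6J difference turned to -0.04.

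Mgea5, the hydrolase that opposes Ogt, lies at chr19:45750255-45783644. Its detection p-value was 0.457 to 0.949 and its signal 0.516 to 0.677 of the lowest detected signal. The balance of transferase and hydrolase transcripts could thus not be set from these arrays.

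Read against all rows, the counts of members were small. In C57Bl/6J 0 of the 2 members open to a test, Uap1 and Ogt, were called by limma, where 0.999% of 9408 rows were called higher and 0.372% lower. At an unadjusted p under 0.05 it was 0 of the 2, and 15.3% of rows. In C57Bl/6N 0 were called higher and 1 lower, where 9.45% of rows were called higher and 7.92% lower. For the difference of the responses 0 were called by limma and 0.0106% of rows were called. At an unadjusted p under 0.05 it was 1 of the 2, Uap1, and 17.5% of rows. Treated C57Bl/6N arrays lay wholly below sham for Uap1, as they did for 15.5% of rows. Sham C57Bl/6N arrays lay wholly above sham C57Bl/6J arrays for Uap1, as they did for 8.24% of rows. Gfpt2 showed both too, but it was chosen for its substrain pattern and is not set beside these shares. No share can be read from so few members.

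The genes around the pathway were described from 6 lists holding 75 genes, of which 65 had a row and 51 were tested. The lists were chosen with earlier results of these data known. In C57Bl/6N limma called 11 of the 51, 7 higher (13.7%) and 4 lower (7.84%), where 9.45% of all rows were called higher and 7.92% lower. The other 40 were not called, and the median log2 difference was 0.02 against -0.04 over all rows. At an unadjusted p under 0.05, 11 were higher and 5 lower, which is 31.4% against 31.4% of all rows. In C57Bl/6J limma called 0 of 51, with a median of 0.07 against -0.01 over all rows. At an unadjusted p under 0.05, 4 were higher and 4 lower, which is 15.7% against 15.3% of all rows. The difference of the responses was called by limma for 0 of 51, with a median of 0.04 against -0.02 over all rows, so none of the changes below was shown to be particular to C57Bl/6N. At an unadjusted p under 0.05, 7 were higher and 6 lower, which is 25.5% against 17.5% of all rows. The 12 higher macrophage markers and the lower cardiomyocyte sum moved with these C57Bl/6N changes, and their part was not tested.

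Of 6 tested genes of glucose and glutamine supply, 2 rose and 1 fell in C57Bl/6N. Slc2a1, the GLUT1 transporter, read 8.67, 8.61 and 8.13 in sham and from 8.79 to 9.41 on the 4 treated arrays, and rose 1.53-fold (limma adjusted p = 0.0469). Hk1, a hexokinase, rose 1.4-fold (limma adjusted p = 0.0379). Slc2a4, the insulin-responsive GLUT4 transporter of muscle, read 11.81, 11.59 and 11.47 in sham and 10.93, 11.17, 10.79 and 11.31 after treatment, and fell 1.49-fold (limma adjusted p = 0.00791). The glucose transporters thus moved in opposite directions. Treated Slc2a4 arrays lay wholly below sham, as they did for 15.5% of rows. The Slc2a1 call was lost in 14 of 25 alternatives and the Hk1 call in 10, while Slc2a4 kept its call in all 25.

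In C57Bl/6J the same genes were not called. Slc2a4 had a log2 difference of -0.28 there (limma adjusted p = 0.321), Slc2a1 one of 0.35 (0.414) and Hk1 one of -0.15 (0.668).

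Of 8 tested genes of amino sugar salvage and breakdown, 1 rose in C57Bl/6N. Renbp, the N-acetylglucosamine 2-epimerase, rose 1.4-fold (limma adjusted p = 0.026), against a log2 difference of -0.02 in C57Bl/6J (0.969). With background inferred from all rows, its log2 difference of 0.485 became 0.10. Nagk, the kinase that returns free GlcNAc to the pathway, had a log2 difference of 0.20 in C57Bl/6N (limma adjusted p = 0.189). Amdhd2, which deacetylates GlcNAc 6-phosphate, had 0.25 (0.219). The deaminases Gnpda1 and Gnpda2, which turn the amino sugar phosphate back into fructose 6-phosphate, had 0.16 (0.423) and -0.10 (0.72). In C57Bl/6J these 4 lay between -0.24 and 0.07, and none was called in either substrain.

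Of 8 tested genes of UDP sugar and sialic acid synthesis, 2 rose and 1 fell in C57Bl/6N. Nans, the sialic acid synthase that takes up amino sugar made from UDP-GlcNAc, read 6.93, 7.30 and 7.56 in sham and 8.43, 8.14, 8.37 and 7.81 after treatment. It rose 1.9-fold (log2 difference 0.93, SE 0.16, limma adjusted p = 0.00156) and kept the call in all 25 alternatives. With background inferred from all rows the log2 difference was 0.38. Its lowest treated array was array 4, the one with the lowest summed macrophage signal. This was not particular to Nans. Array 4 was also the treated C57Bl/6N array nearest to the sham mean for Slc2a1, Hk1, Slc2a4, Renbp, Ugp2, Alg14, Sec61b and Mlxipl, but not for Trib3 or Uap1. The cause was not tested.

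Ugp2, which makes UDP-glucose, fell 1.34-fold (limma adjusted p = 0.038). Its treated arrays read 10.48, 10.44, 10.45 and 11.01, and the last, array 4, overlapped the sham range of 10.87 to 11.12.

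Of 13 tested enzymes that use UDP-GlcNAc, 1 rose in C57Bl/6N. Alg14, a subunit of the transferase that adds the second GlcNAc to the lipid-linked N-glycan precursor, rose 1.35-fold (limma adjusted p = 0.0113). The hyaluronan synthase Has1 was above background on 2 of 3 C57Bl/6N sham arrays, 1 of 4 treated C57Bl/6J arrays and none of the other arrays, and was not called (limma adjusted p = 0.117 in C57Bl/6N and 0.377 in C57Bl/6J). Has2 was above background on 1 of 14 arrays and Eogt, the O-GlcNAc transferase of the endoplasmic reticulum, on 0 of 14, and neither was tested.

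Of 10 tested genes of the Xbp1, Atf6 and Atf4 branches of the unfolded protein response, 1 rose and 1 fell in C57Bl/6N. Sec61b, a subunit of the protein translocation channel, rose 1.86-fold (log2 difference 0.89, limma adjusted p = 0.0125). C57Bl/6N sham array 1 read 7.75 against 8.83 and 9.01 on the other sham arrays, and without it the log2 difference was 0.50. Trib3, a target of Atf4, cleared background on all 3 sham arrays but on 0 of the 4 treated ones, and was at least 1.2-fold lower (limma adjusted p = 0.0142). For that bound each treated array counts at its detection limit or at the measured Trib3 signal, whichever is higher. With background inferred from all rows, the Trib3 log2 difference went from -0.43 to -0.04 and the call was lost (limma adjusted p = 0.0748).

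Xbp1, the transcription factor known to act on the hexosamine genes, read 11.30, 10.88 and 11.05 in sham C57Bl/6N and 10.49, 10.55 and 10.46 in sham C57Bl/6J. The sham C57Bl/6N arrays thus lay wholly above, as they did for 8.24% of rows. With angiotensin II its log2 difference was 0.37 in C57Bl/6J (limma adjusted p = 0.139) and 0.02 in C57Bl/6N (0.93), and the difference of the responses had an adjusted p of 0.279. Atf4 had 0.42 in C57Bl/6J (limma adjusted p = 0.169) and -0.05 in C57Bl/6N (0.862). The chaperone Hspa5 had 0.42 (0.533) and 0.04 (0.949). Its row was dim, above background on only 2 of 3 C57Bl/6J sham arrays, and its group SDs ran from 0.40 to 0.59. The array signal does not separate spliced from unspliced Xbp1.

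Of 6 tested OGT cofactors and O-GlcNAc-linked regulators, 1 fell in C57Bl/6N. Mlxipl, which encodes the glucose-sensing transcription factor ChREBP, read 8.84, 8.79 and 8.94 in sham and 7.64, 7.97, 7.89 and 8.63 after treatment. It fell 1.77-fold (log2 difference -0.82, SE 0.19, limma adjusted p = 0.00968) and kept its call in all 25 alternatives. Its treated arrays lay wholly below sham, as they did for 15.5% of rows. In C57Bl/6J the arrays read 8.19, 8.56 and 8.70 and then 9.02, 8.60, 8.58 and 8.76, a log2 difference of 0.25 (limma adjusted p = 0.566). The difference of the responses was -1.07 (limma adjusted p = 0.13). With background inferred from all rows its C57Bl/6N difference was -0.55. Its highest treated C57Bl/6N array was array 4.

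**Figure D3:**
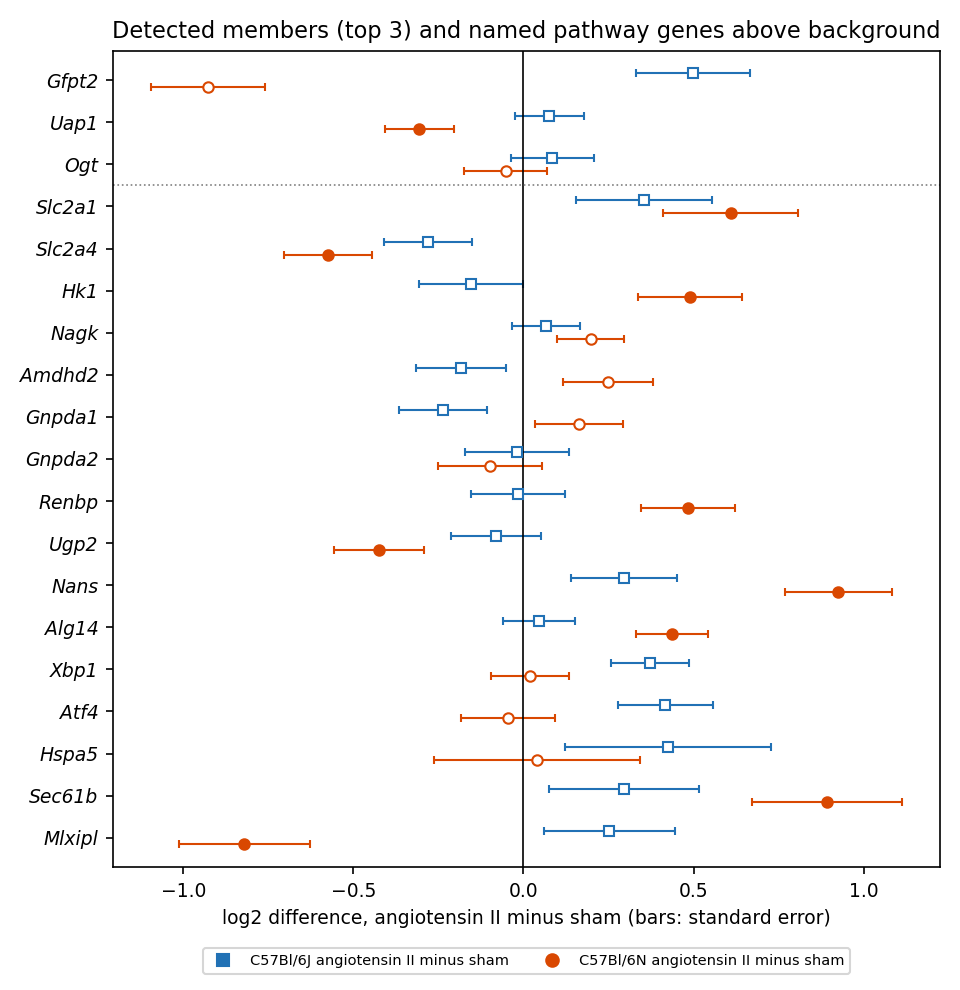
Log2 difference between angiotensin II and sham, with the standard error, for the 3 detected members above the dotted line and the named genes of the 6 lists below it; filled symbols have an adjusted p under 0.05, and Gfpt2 is drawn open because it was not tested. All filled symbols are C57Bl/6N circles, and Has1 and Trib3, without signal above background in a whole group, are left out.

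The rows whose signal followed a member most closely over the 14 arrays were, for Gfpt2, Klhl21 (r = 0.84), Sppl2a (0.83), Ccdc137 (0.83), Mettl4 (0.83) and Nhlrc2 (0.81). Klhl21, the closest, had group means of 10.59 in C57Bl/6J sham, 10.64 after treatment, 10.90 in C57Bl/6N sham and 10.47 after treatment. For Uap1, added after the values had been seen, they were Ddx47 (0.83), Anp32e (0.82), Zfp954 (0.81), Aggf1 (0.81) and Mgl2 (0.80). For Ogt, likewise added, they were Morc2a (0.95), Tlcd5 (0.94), Klhl7 (0.93), Dab2ip (0.93) and Sec24d (0.93). These are the highest of 9408 rows by Pearson's r and share groups and normalisation with the member.

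Over the alternative processings of these same values, the Gfpt2 difference ranged from 0.36 to 0.64 in C57Bl/6J and from -1.06 to -0.84 in C57Bl/6N, and the sham substrain difference ranged from 0.87 to 1.14. These ranges describe the processing and add no support, since Gfpt2 was chosen on the same arrays. Uap1 kept a negative difference in C57Bl/6N throughout, from -0.36 to -0.20.

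**Figure D4:**
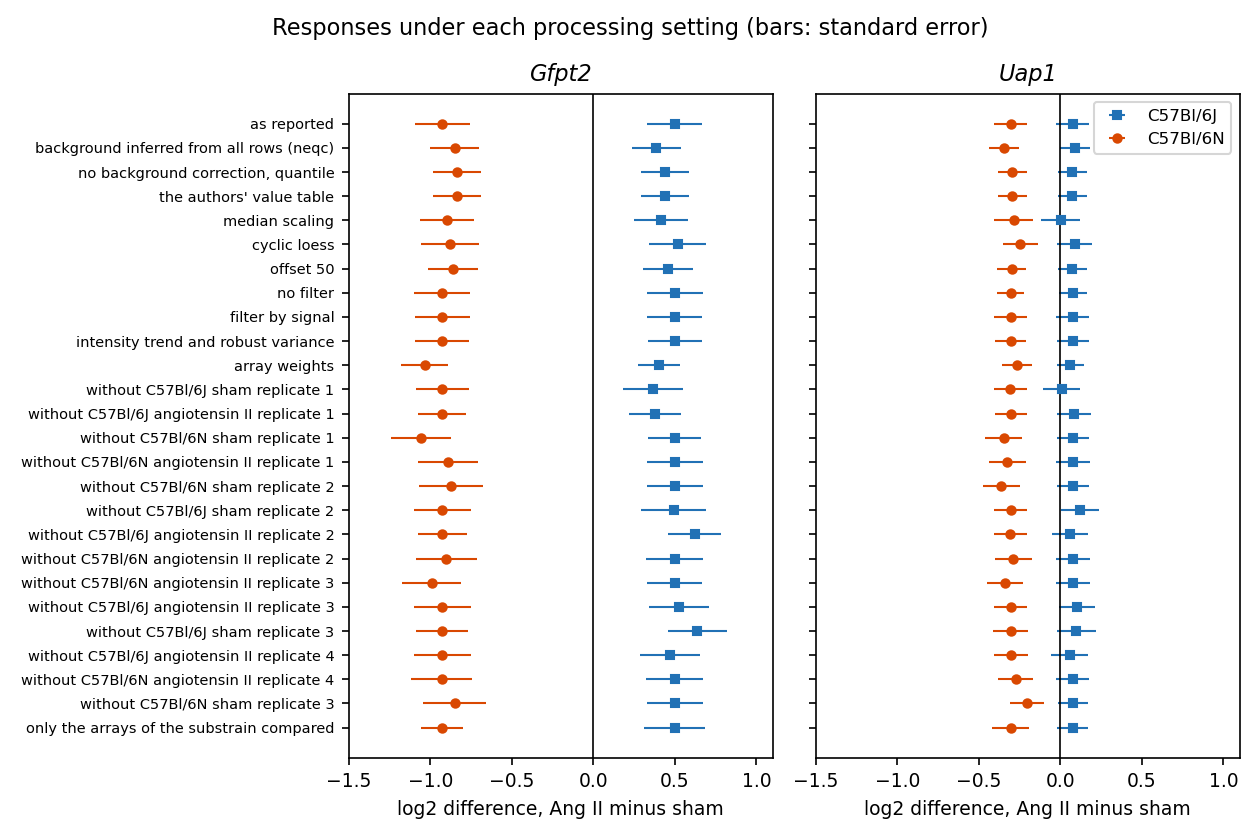
Log2 difference between angiotensin II and sham for Gfpt2 and Uap1 under the reported processing (top line) and 25 alternatives, including leaving out each array, with standard errors; squares are C57Bl/6J and circles C57Bl/6N. Gfpt2 stays between 0.36 and 0.64 in C57Bl/6J and between -1.06 and -0.84 in C57Bl/6N, while the Uap1 squares come as close to 0 as 0.0005.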

How the data were processed

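The authors deposited signal intensity, on a linear scale and not normalised, with detection p-values, for 18138 gene rows on 14 Illumina arrays, plus a value table of 18132 rows whose intensity matched a quantile normalisation of the deposited signal. Array medians were 80.8 to 112. The sources used here name neither the array model nor the scanner software. Per the labels' protocols, total RNA was turned into biotin-labelled cRNA. For 14215 rows (78.4%) every deposited detection p-value was a multiple of 1 step in 798, to within 0.2% of a step, read as 1 probe each ranked among negative controls. The background mean (60.8 to 74.2) and SD (11.6 to 18.5) of each array were inferred from these rows. A detection p-value of 0 meets the rule of steps with any number of probes. Bright rows at 0 on every array were thus read as 1 probe whatever their number. Normal-exponential correction, an offset of 16, quantile normalisation and log2 followed, with limma 3.58.1 in R 4.3.3. The offset makes folds of dim genes too small.

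A 1-probe row was above background at a detection p-value under 0.05. Other rows were so at or over the smallest signal among the detected 1-probe rows of that array (84.2 to 112), called the lowest detected signal. The 9408 rows (51.9%) that passed a detection p-value of 0.05 on 3 or more arrays were tested in 1 limma fit of 4 group means (lmFit, contrasts.fit, eBayes, 10 residual and 4.8 prior degrees of freedom), with Benjamini-Hochberg adjustment over all of them. "Called", "rose" and "fell" mean an adjusted p under 0.05. The fit was tested on simulated data. The number of arrays limits the precision.

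Members and gene lists were chosen with earlier results of these data known. Named genes were the 7 members, up to 5 called genes per list and comparison by size of change, 11 others whatever their values, and the 5 rows most correlated with Gfpt2. Of these genes, 1 is counted in its list but not reported here. The same for Gfpt1 was left out because Gfpt1 was below background. Gene positions and promoters are from RefSeq on GRCm38.p6, and 6 of the 7 members had a promoter. No batch, chip or date was given. Replicate numbers follow the sample list and pair nothing. Alternatives changed the background, scaling, offset, filter, variance model, array weights and arrays used.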

Additional observations from a re-analysis of the deposited data

Results flagged for a closer look

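The Gfpt2 responses of the 2 substrains ran in opposite directions, with a difference of -1.43 on the log2 scale. Each treated C57Bl/6J array minus the sham mean was 0.13 to 0.86, and each treated C57Bl/6N array minus its sham mean was -1.05 to -0.74. The difference was not tested, because Gfpt2 was chosen for this pattern.

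In 5 of 48 groups of 4 treated arrays, 1 array lay so far from the other 3 that its gap, divided by the range of the group, passed Dixon's 95% critical value. Chance alone gives this in about 1 of 20 groups. Treated C57Bl/6J array 1 was the array concerned in 4 of them. Slc2a1 read 9.24 there against 8.38 to 8.51 on the other arrays (gap 0.848 of the range). Xbp1 read 11.15 against 10.76 to 10.81 (0.881). Nagk read 8.62 against 8.81 to 8.82 (0.938). Has2 read 5.40 against 4.85 to 4.94 (0.849), with 0 of the 4 arrays above background. In treated C57Bl/6N, Ugp2 read 11.01 on array 4 against 10.44 to 10.48 (0.935), the array whose macrophage markers were also the lowest of the group.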

How the results depend on the processing

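Of 25 alternatives, none called Uap1 or Ogt in C57Bl/6J. In C57Bl/6N the count of 1 member called, Uap1, became 0 with median scaling, with cyclic loess, with a filter by signal and with only the arrays of the substrain compared, and ran from 0 to 1 when each array was left out. The pathway genes called in C57Bl/6J went from 0 to 2 with array weights. In C57Bl/6N they went from 11 to 17 with array weights, and from 6 (without C57Bl/6N sham array 1 or 2, or treated array 1 or 3) to 13 with each array left out, with 7 without sham array 3 or treated array 2. Ogt, never called, changed sign in C57Bl/6J with median scaling (-0.0071), array weights (-0.0364) and without treated C57Bl/6J array 1 (-0.0378, the low end of a range up to 0.14), in C57Bl/6N without sham array 1 (0.0192, the high end of a range from -0.11), and in the difference of responses with array weights (0.0177). Calls in C57Bl/6N were lost in 6 alternatives for Renbp, 9 for Ugp2, 2 for Trib3 and 1 each for Alg14 and Sec61b. Over all rows, the called counts of 129 in C57Bl/6J and 1634 in C57Bl/6N became 559 and 2665 with array weights. C57Bl/6J had 67 with background from all rows, 75 with no filter, 70 with its own arrays alone, and 1 (without sham array 2) to 178 with an array left out. C57Bl/6N had 950 to 2013 without 1 of its own arrays and 2265 without treated C57Bl/6J array 1. The difference of responses went from 1 row to 569 with array weights and 415 without treated C57Bl/6N array 4. The causes were not tested. No paired analysis was possible because replicate numbers follow the sample list. Depth cannot be counted on arrays, and the 4 members under the lowest detected signal gave no comparison.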
